A study of Mus musculus with 4 samples.

Results

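The genes described here are 42 genes of DNA replication, chosen by name: the factors that prepare and fire origins, the enzymes of the replication fork, the enzymes that make deoxynucleotides, and the complex that places histones on new DNA. All 42 are among the 10716 genes of the deposited table. They were read in RNA sequencing libraries of erythroid cells from the fetal liver of C57BL/6 mouse embryos at embryonic day 14.5, sorted for the fluorescence of a YFP reporter at the Rosa26 locus. There were 2 libraries labelled as an Adar knockout under Epor, the erythropoietin receptor gene used to restrict deletion to erythroid cells, and 2 labelled wild type. Adar encodes the RNA-editing enzyme ADAR1. The knockout-labelled libraries are called KO1 and KO2 after their replicate numbers, and the controls WT3 and WT8. The genotype field of KO1 and KO2 reads Epor-Adar / +, so the state of each Adar allele is not known from it. The labels do not say whether the controls carried a recombinase, which Adar exons were removed, or whether a library came from 1 embryo or from a pool. The p-values below therefore measure only the spread between these 4 libraries, which may be technical in part. In bulk RNA, fewer cells of a kind and less RNA per cell cannot be told apart.

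Before S phase, the origin recognition complex, CDC6 and CDT1 load the ring of MCM proteins onto origins, a step called licensing. The kinase CDC7, with CDC45, the GINS proteins and MCM10, then turns the loaded ring into the active helicase. At the fork, primase and DNA polymerase alpha start each strand, the RFC complex loads the sliding clamp PCNA for polymerases delta and epsilon, RPA coats single-stranded DNA, and FEN1 and LIG1 join Okazaki fragments. Ribonucleotide reductase (RRM1 and RRM2), thymidylate synthase, thymidine kinase and dUTPase supply the building blocks. Erythroblasts of the fetal liver divide rapidly before they leave the cell cycle and lose their nucleus, so these transcripts are abundant in them.

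Values are CPM, counts scaled to the TMM-adjusted library size, from total counts of 28356401 (WT3) to 44016809 (WT8). The least-counted member value was 306 reads and the highest 50593. Adar itself had 67.1 CPM in KO1 and 102 in KO2 against 50.9 in WT3 and 46.9 in WT8 (84.4 ± 24.4 against 48.9 ± 2.82, SD, n = 2 each). Its log2 fold change, knockout-labelled over control, was 0.79 (SE 0.25, edgeR adjusted p = 0.377). Reads on exons that a conditional allele keeps are counted too, so this value does not check the deletion. Of the erythroid markers 11 of 11 were in the table, with summed levels from 68323 (WT8) to 103070 CPM (WT3). KO1 was the lowest library for 8 of these 11 and the highest for 2. Hba-a1 alone made up 33347.5 of the 71863.9 CPM summed in KO1, so the sum says little about the other markers. For 3 of the 4 libraries the labelled sex did not match the summed counts of 4 Y-linked genes. KO1, labelled female, had 11705, KO2, labelled male, had 3, and WT3, labelled female, had 5599. WT8 had 10695, so KO2 alone was nearly without Y-linked counts. By these counts KO1 and KO2 did not come from the same embryo or pool. The part of this difference in the results below was not tested.

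KO1 and WT3 each stood apart in some marker lists. In KO1 the 7 measured neutrophil markers summed to 305 CPM, against 37.3 in KO2, 41.1 in WT3 and 45.3 in WT8, and all 7 were highest in KO1. The 5 measured progenitor markers summed to 187 CPM in KO1 and to between 99.9 and 108 CPM elsewhere, again with every one highest in KO1. Macrophage markers (10 of 12 measured) summed to 51.6 CPM in KO1, 27.4 in KO2, 67.7 in WT3 and 36.7 in WT8. Lyz2, which neutrophils express too, made up 43.1 CPM of the KO1 sum, and 8 of the 10 were lowest in KO1. The 9 late erythroid markers summed to 15572, 18898, 23979 and 16601 CPM in the same order. KO1 was the lowest library for 5 of these 9 and the highest for 1. WT3 was the highest library for 9 of 11 erythroid, 8 of 9 late erythroid, 9 of 10 macrophage and 7 of 7 hepatoblast markers. Hepatoblast markers (7 of 9) summed to between 49.5 and 125 CPM. Megakaryocyte markers (6 of 8) summed to 151 CPM in KO1, 102 in KO2, 60.4 in WT3 and 87.6 in WT8. Of these 6, 5 were highest in KO1. The 1 measured lymphocyte marker, Ptprc, had 9.56 CPM in KO1, 1.94 in KO2, 2.03 in WT3 and 1.54 in WT8. None of these measured markers was at 0 counts in any library. The part of these cells in the results below was not tested.

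None of the 42 replication genes passed edgeR's quasi-likelihood test at an adjusted p below 0.05, where 0.103% of all genes passed. Their adjusted p ran from 0.433 (Pold2) to 0.978 (Cdc6). At an unadjusted p below 0.05 there were also 0 members, lower or higher, where 2.08% of all genes were lower and 9.82% higher. DESeq2 called 0 members, where it called 0.196% of all genes lower and 3.29% higher. The likelihood ratio test (0.168% lower, 3.09% higher) and limma-voom (0% lower, 0.0747% higher) called 0 members too. Other scalings, filters and edgeR settings, or leaving out 1 control, also gave 0 members, with 0% to 0.0187% of all genes called lower (0.00933% without WT3). Of all genes these called higher 0.103%, 0.14% or 0.142%, or 0.793% without library scaling, 0.373% without WT3 and 0.233% without WT8. In the authors' deposited table the members' adjusted p ran from 0.444 to 0.971. The log2 fold changes were small and mostly negative. They ran from -0.55 (Rrm2) to 0.36 (Cdc7) with a median of -0.24, and 39 of 42 were below 0, against a median of -0.00077 and 50% of all genes. Without KO1, the median of the members was -0.05 and 30 of 42 were below 0, where 52% of all genes were.

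The members were lowest in KO1. In KO1 38 of 42 had the lowest value of the 4 libraries, where 41.3% of all genes did. The exceptions were Mcm2, whose lowest value was in KO2, and Mcm5, Cdc7 and Pola1, whose highest value was in KO1, where 40.9% of all genes had theirs. In KO2 only Mcm2 was the lowest of 4, against 11.4% of all genes, and 16 members lay between the controls, against 30% of all genes. WT3 was the highest of the 4 libraries for 27 members, where 26.2% of all genes were highest there. As a percentage of the mean of the controls, the members had a median of 74.4% in KO1, with a range from 36.2% to 150%, and of 96.7% in KO2, with a range from 80.4% to 106%. Over all genes these medians were 99.5% and 99.1%. At 66.7% of the control mean or less, a limit chosen after the values were seen, stood 14 members in KO1, where 20.8% of all genes did, and 0 in KO2, where 2.44% did. The knockout-labelled libraries were farther apart than the controls on the log2 scale for 37 of 42 members, and for 69.7% of all genes. Both knockout-labelled libraries lay below both controls for 19 members, where 26.7% of all genes did, and above both for 2, where 27.4% did.

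**Figure D1:**
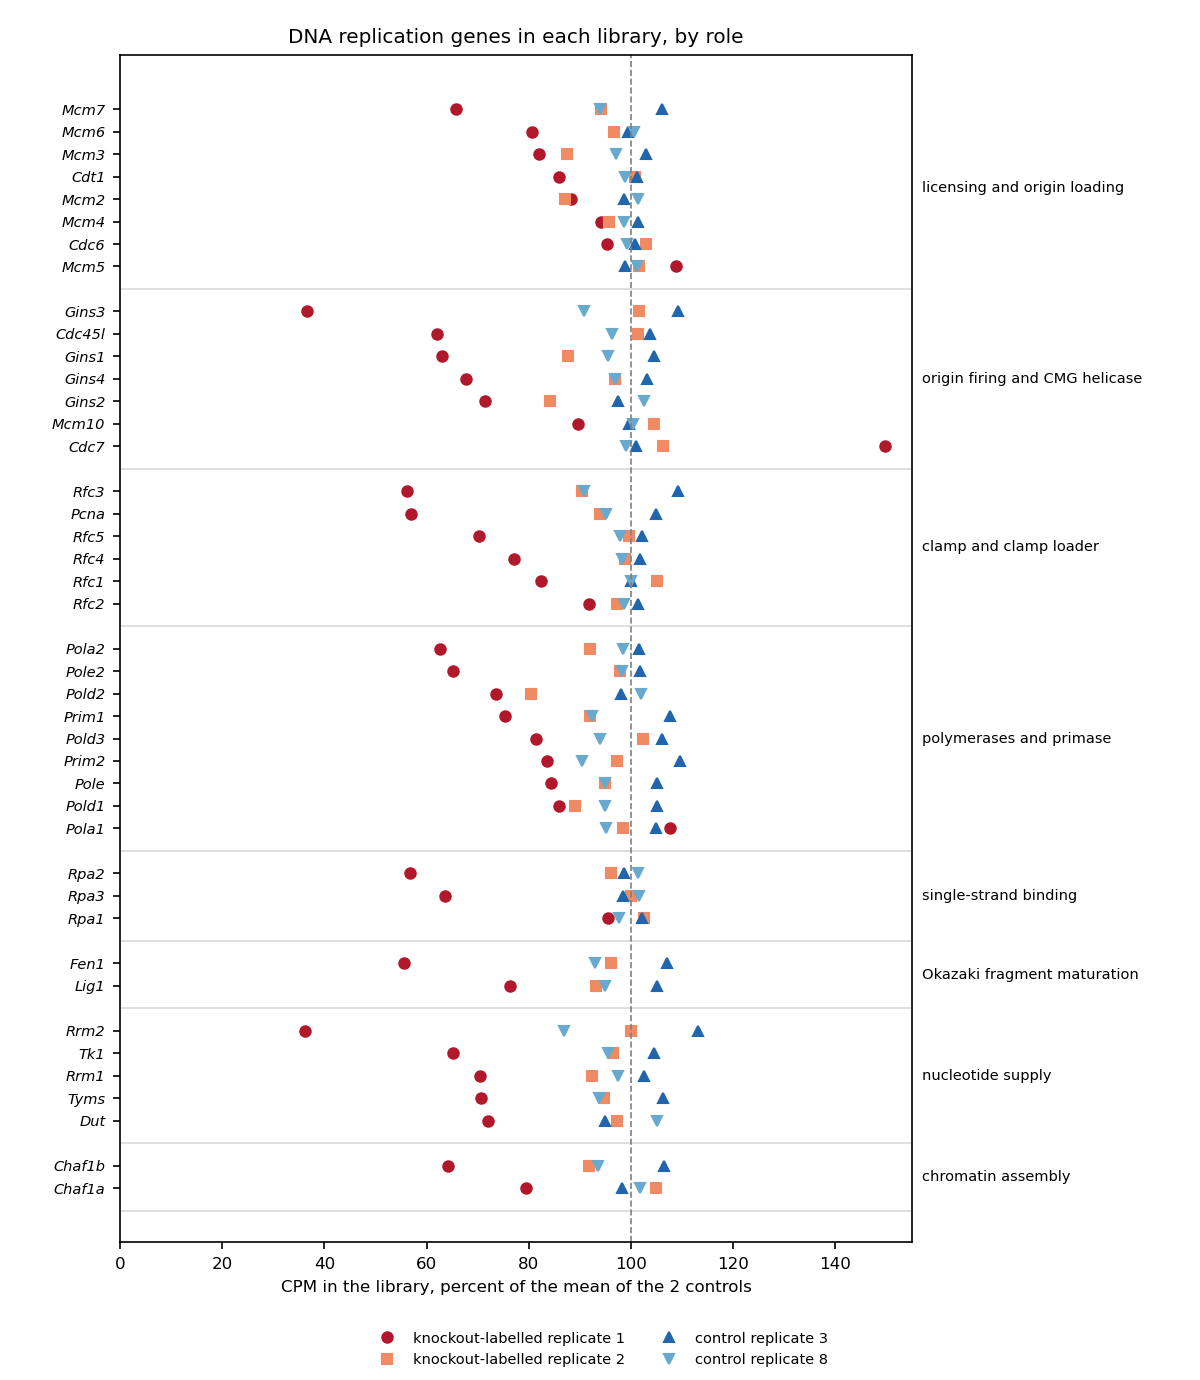
CPM of each of the 42 genes in each library as a percentage of the mean of the 2 controls (x axis), with the genes grouped by role and 1 point per library. KO1 (dark red circles) lies left of the other libraries for 38 genes and right of them for Mcm5, Cdc7 and Pola1, and KO2 (orange squares) stays between 80.4% and 106%.

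A fit of KO1 alone against the controls (without KO2) called 14 members lower, 33.3% of them, where 15.3% of all genes were called lower. They were Cdc45l, Gins1, Gins3, Gins4, Rfc3, Rfc5, Pola2, Pole2, Rpa2, Rpa3, Fen1, Rrm2, Tk1 and Chaf1b. Cdc7 was the 1 member called higher, where 17.3% of all genes were. In that fit KO1 is a single library whose spread is taken from that of the controls, so it describes KO1 and not the genotype. A fit of KO2 alone against the controls (without KO1) called 0 members, where 0.0467% of all genes were lower and 1.29% higher. At an unadjusted p below 0.05 that fit also had 0 members, where 1.45% of all genes were lower and 6.84% higher. Without KO2 there were 19 lower (21.9% of all genes) and 1 higher (23% of all genes).

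**Figure D2:**
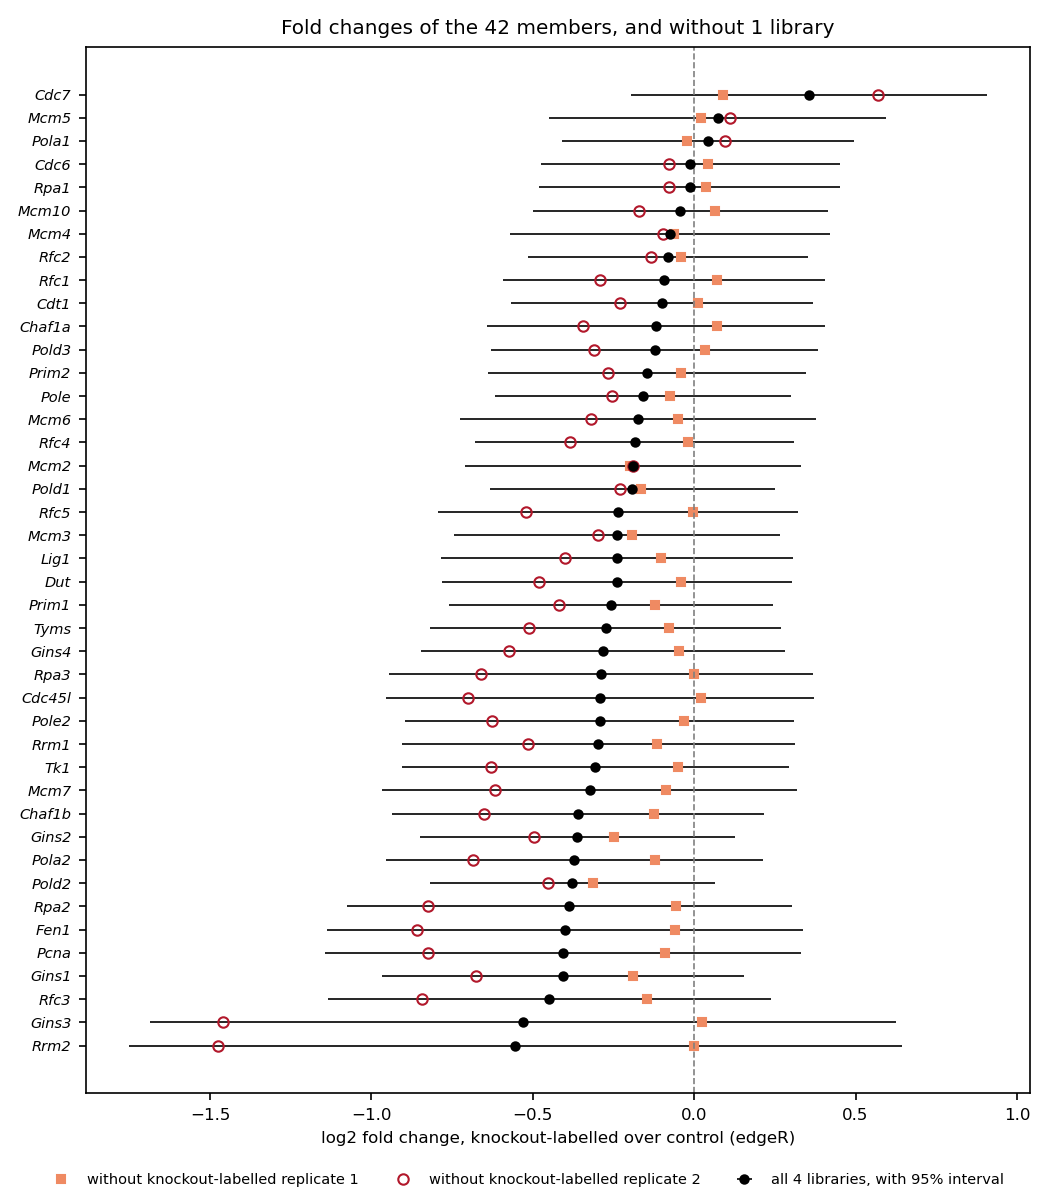
Log2 fold change of each member, knockout-labelled over control (x axis), from edgeR with all 4 libraries (black, with the 95% interval) and without KO1 (orange squares) or KO2 (open circles). All 42 intervals span 0, and the largest distances between the square and the circle are those of Gins3 and Rrm2.

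The stretches before the transcription start are shown because replication genes are known as targets of E2F factors, and because they were compared between members that were low in KO1 and members that were not. Of the 42 genes, 35 had a promoter sequence in RefSeq (GRCm38.p6). In the 250 bases before the start, on either strand, 16 of the 35 (45.7%) held at least 1 string of E2F type, against 9.01% of 27025 gene symbols. CCAAT was held by 20 of 35 (57.1%) and 37.5% of all, and GGGCGG by 25 of 35 (71.4%) and 35.4% of all. The 27025 symbols were not limited to the genes of the deposited table, unlike the shares of all genes given elsewhere. The E2F strings searched were TTCCCGC and its variant TTCGCGC, together with TTGCCGC and the closely related form TTGGCGC. Strings of different kinds were counted also where they overlap. The members with an E2F string had a median of 68.1% of the control mean in KO1 (36.2% to 150%), and the 19 without one 76.4% (56.9% to 95.5%). Of the members with such a string, the 5 lowest in KO1 are given first and the 4 highest after them, a choice made after their values were seen, each as 60 bases from 5′ to 3′ on the gene's strand, with the E2F strings in capitals.
Rrm2: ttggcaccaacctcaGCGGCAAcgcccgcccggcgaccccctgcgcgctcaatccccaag
Gins3: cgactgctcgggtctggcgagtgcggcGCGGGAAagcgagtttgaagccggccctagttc
Fen1: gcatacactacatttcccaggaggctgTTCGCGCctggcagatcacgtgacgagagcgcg
Rfc3: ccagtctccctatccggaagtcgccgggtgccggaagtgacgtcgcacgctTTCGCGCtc
Rpa2: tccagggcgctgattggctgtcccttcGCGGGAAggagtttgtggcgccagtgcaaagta
Cdc6: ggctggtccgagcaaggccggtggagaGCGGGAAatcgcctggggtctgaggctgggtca
Pola1: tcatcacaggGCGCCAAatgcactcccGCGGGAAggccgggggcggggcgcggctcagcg
Mcm5: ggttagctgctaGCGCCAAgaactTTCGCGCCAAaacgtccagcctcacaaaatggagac
Cdc7: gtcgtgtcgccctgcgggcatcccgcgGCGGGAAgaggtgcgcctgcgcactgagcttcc

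The E2F string nearest to the start began 235 bases before it in Rrm2, 41 in Gins3, 34 in Fen1, 9 in Rfc3 and 37 in Rpa2. The distance was 138 in Cdc6, 121 in Pola1, 149 in Mcm5 and 35 in Cdc7. Fen1 and Cdc7 had 2 promoter entries each, and the first that held a string was used here. A gene was counted as holding a string if any of its entries did. On GRCm38.p6 the stretches are chr12:24708004-24708063 (plus strand) for Rrm2, chr8:95633491-95633550 (plus) for Gins3 and chr19:10203923-10203982 (minus) for Fen1. Those of Rfc3 and Rpa2 are chr5:151651209-151651268 (minus) and chr4:132768296-132768355 (plus). Those of the 4 highest are chr11:98907986-98908045 (plus) for Cdc6, chrX:93632244-93632303 (minus) for Pola1, chr8:75109333-75109392 (plus) for Mcm5 and chr5:106964499-106964558 (plus) for Cdc7. The stretches were chosen only among members that hold an E2F string, so a string before both low and high genes follows from that choice. These genes ran from Rrm2 at 36.2% to Cdc7 at 150% of the control mean in KO1. A matching string is a description and not a binding site.

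The licensing genes had the role median closest to the controls in KO1, of 87.1% of the control mean over the 8 genes and 96.2% in KO2. Cdc6, the loader ATPase, had 260 and 281 CPM in KO1 and KO2 and 275 and 271 in WT3 and WT8. Cdt1, the other loading factor, had 161 and 189 against 189 and 185. For Cdt1 KO2 lay between the controls and KO1 was the lowest, at 85.8% of the control mean, while for Cdc6 KO1 was at 95.4% and KO2 was the highest.

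The MCM ring is built of 1 copy each of MCM2 to MCM7. In KO1 its transcripts differed in how far they stood from the controls. Mcm7 had 407 CPM in KO1 and 584 in KO2 against 659 and 583, with the lowest log2 fold change of the ring, -0.32 (SE 0.26, edgeR adjusted p = 0.546). Mcm5 had 667 and 622 CPM against 605 and 619, a log2 fold change of 0.07 (SE 0.21, edgeR adjusted p = 0.867). Both knockout-labelled libraries were above both controls for Mcm5, while for Mcm7 only KO1 was below them. Mcm2, the ring gene with the highest CPM in both controls, had 605 and 596 against 676 and 694. The groups of Mcm2 thus did not overlap (log2 fold change -0.19, SE 0.21, edgeR adjusted p = 0.649). Mcm3 and Mcm4 also had both knockout-labelled values below both controls, at 82.0% and 87.6% of the control mean for Mcm3 and at 94.1% and 95.7% for Mcm4. The same held for Mcm6, which stood at 80.7% in KO1 and 96.6% in KO2. Divided by transcript length, the ring genes kept within 1.59-fold of each other in KO1 and within 1.75-fold to 1.83-fold in the others. The highest of them was Mcm6 in KO2, WT3 and WT8, at 225, 231 and 234 CPM per kb, and Mcm5 in KO1, at 195. Mcm4 was the lowest in all 4 libraries, at 122 to 132 CPM per kb. The ratio of Mcm5 to Mcm7 CPM was 1.64 in KO1, 1.06 in KO2, 0.92 in WT3 and 1.06 in WT8.

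**Figure D3:**
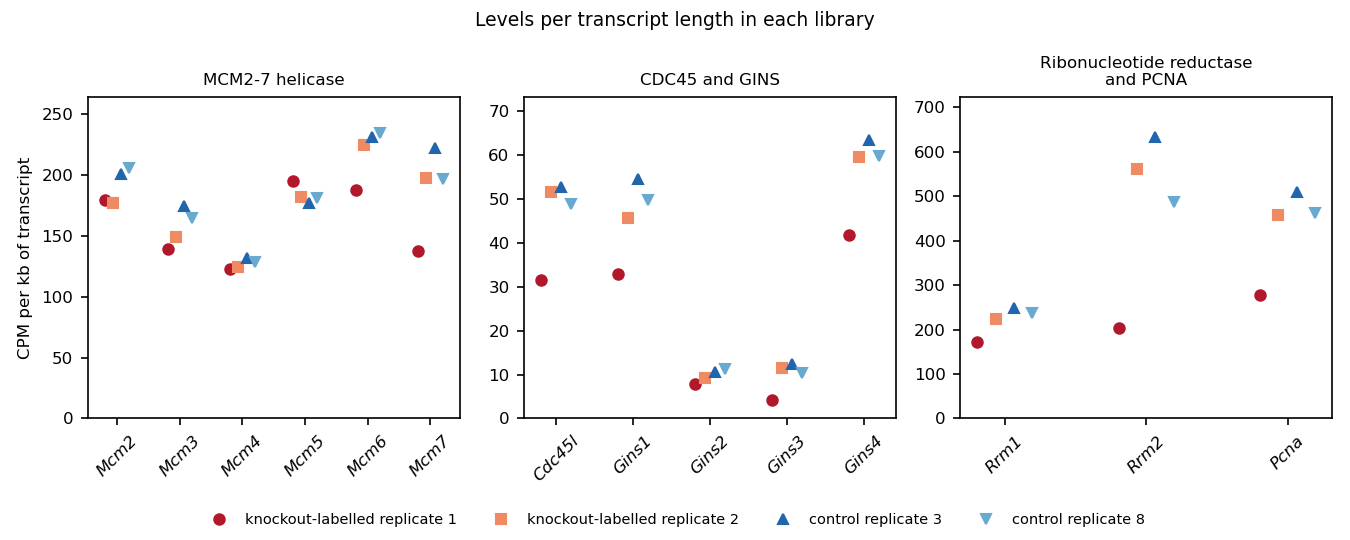
CPM per kb of transcript (y axis, from 0) in each library for the MCM ring, for Cdc45l with the GINS genes, and for ribonucleotide reductase with Pcna, with 1 point per library. In KO1 Mcm7, Cdc45l, Gins1, Gins3, Gins4, Rrm2 and Pcna sit clear of the other 3 libraries, while Mcm4 stands at 94.1% and Mcm5 at 109% of the control mean.

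Genes of origin firing spread widely in KO1, from 36.6% (Gins3) to 150% (Cdc7) of the control mean. Cdc7, the kinase that fires licensed origins, had 111 CPM in KO1, 78.7 in KO2, 74.8 in WT3 and 73.2 in WT8, the highest log2 fold change of all members (0.36, SE 0.22, edgeR adjusted p = 0.472). KO1 was far above the others and KO2 slightly above both controls. Without KO2 the value was 0.57 (SE 0.17, adjusted p = 0.0284), and without KO1 it was 0.09. Dbf4, the activating subunit of CDC7 and not one of the 42, named here after its values were seen, had 170 and 172 CPM against 162 and 148.

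The helicase partners lay on the low side. Gins3, a subunit of the GINS complex, had 9.98 CPM in KO1, 27.7 in KO2, 29.8 in WT3 and 24.8 in WT8. KO1 was at 36.6% of the control mean and KO2 between the controls. With all 4 libraries the log2 fold change of Gins3 came to -0.53 (SE 0.47, edgeR adjusted p = 0.574), and it was -1.46 without KO2 (SE 0.23, adjusted p = 0.00206) and 0.03 without KO1. Gins2, the member of this role with the smallest p, had 30.5 and 35.9 CPM against 41.5 and 43.8, so both knockout-labelled values were below both controls (log2 fold change -0.36, SE 0.20, edgeR adjusted p = 0.447). Gins1 and Gins4 showed the same order of groups, at 63.1% and 67.7% of the control mean in KO1 and at 87.7% and 96.8% in KO2. For Gins4, however, KO2 was nearly level with WT8, at 81.46 against 81.50 CPM. Cdc45l, listed today as Cdc45, had 67.6 CPM in KO1, 110 in KO2 and 113 and 105 in the controls, with KO2 between them. Mcm10, which has the highest CPM of this role, had 124 and 145 against 138 and 139.

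For the sliding clamp and its loader KO1 was lowest for 6 of 6 genes, while the place of KO2 differed between them. Pcna, the clamp, had 420 CPM in KO1, 694 in KO2, 774 in WT3 and 702 in WT8 (557 ± 193 against 738 ± 50.7, SD, n = 2 each). The Pcna log2 fold change came to -0.41 with an SE of 0.30 (edgeR adjusted p = 0.517), and to -0.09 when KO1 was left out. Rfc3, a small subunit of the loader, had 27.7 and 44.6 CPM against 53.9 and 44.9, the lowest log2 fold change here (-0.45, SE 0.28, edgeR adjusted p = 0.470). Rfc2 had 109 and 116 against 121 and 117, the closest to the controls. The 5 loader genes thus spread in KO1 from 56.1% (Rfc3) to 91.8% (Rfc2) of the control mean, with 82.4% for the large subunit gene Rfc1, 77.2% for Rfc4 and 70.2% for Rfc5. In KO2 they ran from 90.3% to 105%.

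Among the member genes of polymerases alpha, delta and epsilon, Pola2, Pold2, Pold3 and Pole2 had a lower percentage of the control mean in KO1 than the catalytic subunit of their enzyme. Accessory subunits outside the 42 did not all do so: Pold4 was at 428% and Pole3 at 98.2% in KO1, while Pole4 was below Pole. Pola1, the catalytic subunit of polymerase alpha on the X chromosome, had 171 CPM in KO1, 156 in KO2, 166 in WT3 and 151 in WT8, with groups that overlap (log2 fold change 0.04, SE 0.18, edgeR adjusted p = 0.912). Its partner Pola2 had 101 and 149 CPM against 164 and 159 (log2 fold change -0.37, SE 0.24, edgeR adjusted p = 0.477). The ratio of Pola1 to Pola2 CPM was 1.69 in KO1, 1.05 in KO2, 1.01 in WT3 and 0.95 in WT8. For polymerase epsilon, the catalytic Pole stood at 84.4% of the control mean in KO1 and the subunit Pole2 at 65.2%. For polymerase delta, the catalytic Pold1 stood at 85.9% in KO1, Pold3 at 81.3% and Pold2 at 73.5%. Pold2 had 44.8 and 49.0 CPM against 59.8 and 62.2, the smallest p of all members (log2 fold change -0.38, SE 0.18, unadjusted p = 0.0817, edgeR adjusted p = 0.433). Unlike most members it kept its distance without KO1, at -0.31. In primase the order was the other way round, with the catalytic Prim1 at 75.3% and Prim2 at 83.6% in KO1. These differences between subunits are descriptions of 1 library and were not tested.

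Among the RPA genes, Rpa1, the large subunit, had 270 and 290 CPM against 289 and 276, with KO1 at 95.5% of the control mean. Rpa2 had 83.3 and 141 CPM against 145 and 148 (log2 fold change -0.39, SE 0.28, edgeR adjusted p = 0.511), and Rpa3 24.4 and 38.3 against 37.7 and 38.9. For both small subunits KO1 was well below the other libraries. KO2 was slightly below both controls for Rpa2 and between them for Rpa3. The ratio of Rpa1 to Rpa2 CPM was 3.24 in KO1 and between 1.86 and 2.06 in the others. Of the Okazaki fragment enzymes, the flap nuclease gene Fen1 had 162 and 280 CPM against 312 and 271 (log2 fold change -0.40, SE 0.30, edgeR adjusted p = 0.520). The ligase gene Lig1 had 382 and 466 against 526 and 474 (log2 fold change -0.24, SE 0.22, edgeR adjusted p = 0.590). KO2 lay between the controls for Fen1 and just below both for Lig1.

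Nucleotide supply genes were all lowest in KO1, at 36.2% to 72.1% of the control mean, and at 92.3% to 100% in KO2. Rrm2, the small subunit of ribonucleotide reductase that is made in S phase, had 445 CPM in KO1, 1229 in KO2, 1389 in WT3 and 1069 in WT8. KO2 was 2.76-fold above KO1 and stood between the controls. Group means came to 837 ± 554 against 1229 ± 227 CPM (SD, n = 2 each). This gave a log2 fold change of -0.55 with a 95% interval from -1.75 to 0.64 (SE 0.49, edgeR adjusted p = 0.572). Without KO2 it was -1.48 (SE 0.37, adjusted p = 0.0151).

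Rrm1, the large subunit, had 684 and 895 CPM against 994 and 944, so the subunits did not keep their ratio in KO1. Rrm1 to Rrm2 CPM was 1.54 in KO1, 0.73 in KO2, 0.72 in WT3 and 0.88 in WT8. Per kb of transcript, Rrm2 was above Rrm1 in every library, by 1.19-fold in KO1 and by 2.06-fold to 2.55-fold in the others. The salvage enzyme gene Tk1, with the smallest p of this role, had 121 and 179 CPM against 194 and 177 (log2 fold change -0.31, SE 0.24, edgeR adjusted p = 0.541). Dut, which removes dUTP, had 135 and 183 against 178 and 197, and the thymidylate synthase gene Tyms 135 and 181 against 203 and 179. Each of these had KO2 between the controls. Whether reads shared with pseudogene copies of such genes were counted is not stated.

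The CAF-1 genes encode subunits of the complex that deposits histones behind the fork. Chaf1a had 154 and 203 CPM against 190 and 197, with KO1 lowest and KO2 highest. Chaf1b had 52.5 and 75.0 against 87.1 and 76.4 (log2 fold change -0.36, SE 0.23, edgeR adjusted p = 0.481).

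Set side by side, the median log2 fold changes by role were -0.14 for licensing (8 genes), -0.29 for origin firing (7), -0.21 for the clamp and its loader (6) and -0.19 for polymerases and primase (9). They were -0.29 for RPA (3), -0.32 for Okazaki fragment enzymes (2), -0.30 for nucleotide supply (5) and -0.24 for CAF-1 (2). In KO1 alone the role medians ran from 63.7% (RPA) to 87.1% (licensing) of the control mean, and in KO2 from 94.6% to 101%. No difference between roles was tested.

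**Figure D4:**
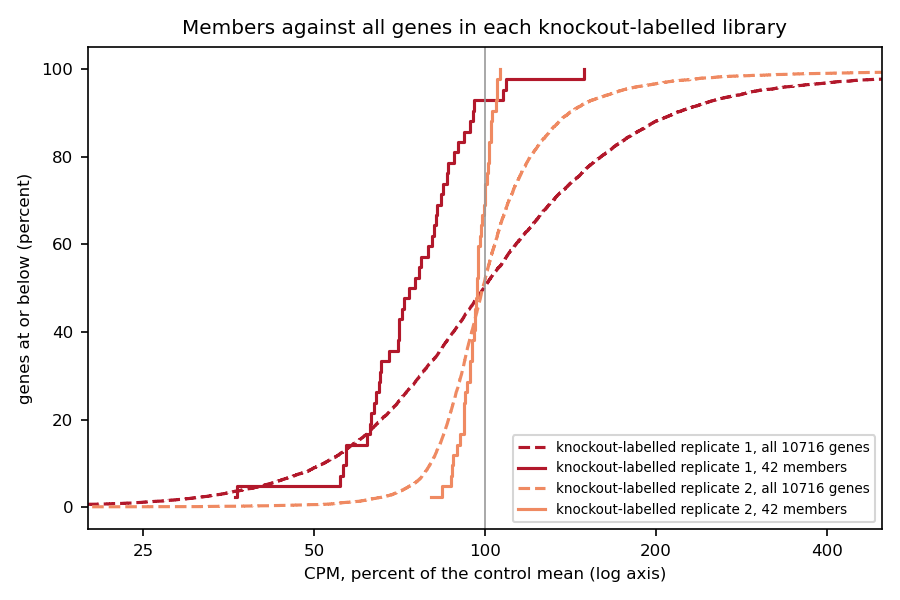
Share of genes at or below a given level (y axis) against CPM as a percentage of the control mean (x axis, log scale) in KO1 (dark red) and KO2 (orange), for the 42 members (solid) and all 10716 genes (dashed). The members' curve lies left of that of all genes in KO1 over most of its range, with medians of 74.4% and 99.5%, and close to 100% in KO2, with medians of 96.7% and 99.1%.

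Genes that act beside the members were read from 7 lists. By edgeR's quasi-likelihood test 0 of their measured genes passed after adjustment, where 0.103% of all genes passed. DESeq2 called 1 higher in each of 3 lists (Pold4, Shmt2 and Cdkn1a), where it called 3.29% of all genes higher. In each list the count of genes lowest in KO1 is to be read beside the 41.3% of all genes that were lowest there. Among 13 measured genes of origin recognition and licensing the median log2 fold change was -0.01 and KO1 was lowest for 5. They ran from Orc1l, an origin recognition subunit (-0.48, SE 0.23), to Mtbp, a partner in origin firing (0.85, SE 0.32), which had 139 CPM in KO1, 72.4 in KO2 and 57.7 and 59.5 in the controls. The 19 other fork genes had a median of -0.21, with KO1 lowest for 15. Dna2, a nuclease-helicase, had 65.8 and 127 CPM against 160 and 148, and Pold4, the smallest polymerase delta subunit, 14.8 and 7.36 against 2.39 and 4.54 (log2 fold change 1.67, SE 0.48, edgeR adjusted p = 0.354). Pold4 was thus above both controls in both knockout-labelled libraries, the other way round from Pold1 and Pold2.

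Of 29 other genes of nucleotide synthesis the median was -0.23, with KO1 lowest for 17. Umps, of pyrimidine synthesis, had 37.2 and 75.8 CPM against 94.3 and 106, and Shmt2, the mitochondrial serine hydroxymethyltransferase, 561 and 395 against 204 and 239 (log2 fold change 1.11, SE 0.25, edgeR adjusted p = 0.278). The 8 other genes of chromatin duplication had a median of -0.27, from Asf1b (-0.47) to Asf1a (0.07), and KO1 was lowest for 7. The 10 checkpoint genes had a median of -0.19, from Hus1 (-0.63) to the kinase gene Atr (0.73), and KO1 was lowest for 7.

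Regulators of S phase, 34 measured genes, had a median of -0.38 and a median of 63.4% of the control mean in KO1, against 97.0% in KO2. KO1 was lowest for 23 of them. Cdkn1a, which encodes the cyclin-dependent kinase inhibitor p21, had 56.3 CPM in KO1, 29.6 in KO2, 2.97 in WT3 and 8.34 in WT8 (log2 fold change 2.91, SE 0.57, edgeR adjusted p = 0.208). Both knockout-labelled libraries were above both controls, and Cdkn1a was highest in KO1, where most replication genes were lowest. Cdkn2c, another inhibitor gene, had 11.1 and 32.4 CPM against 59.5 and 32.7, the lowest log2 fold change of the list (-1.08, SE 0.54). The 14 mitotic genes had a median of -0.30, from Plk1 (-0.66) to the kinesin gene Kif11 (0.38), with KO1 lowest for 10.

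The medians of all 7 lists were closer to 0 without KO1. They then were -0.043 for the regulators of S phase, -0.0012 for the checkpoint genes, -0.094 for the other fork genes and -0.13 for chromatin duplication. They were -0.17 for nucleotide synthesis, -0.18 for the mitotic genes and -0.0025 for origin recognition and licensing. Among the genes named from them, Atr was at 0.15 without KO1, Mtbp at 0.31 and Pold4 at 1.07, and Cdkn1a was at 2.36.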

How the data were processed

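Counts per gene were deposited by the authors for 4 Illumina RNA libraries. Per the submitters' processing notes the tools were HTSeq, the trimmer Trimmomatic 0.30, the aligners TopHat2 2.0.8, BWA 0.6.2 and Bowtie2 2.1.0.0, and GATK, SAMtools 0.1.19, limma, Cufflinks and edgeR, with the builds mm9 and NCBIM37 and no roles given. The table holds 10716 genes, each at 1 CPM or more in at least 2 libraries. The deposited p-values and adjusted p-values of the authors were only copied. Strand and multi-mapping settings are not given in the sources used here.

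The counts were tested with edgeR 4.0.16 (R 4.3.3): TMM scaling, filterByExpr (which removed 0 genes) and the robust quasi-likelihood F test of knockout-labelled against control, with p adjusted by Benjamini-Hochberg across the 10716 genes and called below 0.05. There were 2 residual degrees of freedom and the common biological coefficient of variation was 25.6%. The standard error is the log2 fold change divided by the root of F, and intervals are at 95%. The test was checked on simulated counts. Alternatives were other scalings and filters, DESeq2 1.42.0, limma-voom 3.58.1, the likelihood ratio test, and leaving out each library. Lengths for CPM per kb come from the gencode vM1 transcript with the longest coding sequence. Of the 42 genes, 41 matched by identifier and 1 (Cdc45l) by an older symbol. Promoters come from RefSeq (GRCm38.p6), which gave no entry used here for Mcm4, Gins1, Gins2, Gins4, Rfc2, Prim2 and Pole. Per role, the genes given with every library's value are those with the highest and lowest log2 fold change, the smallest p and the highest mean CPM. Other subunits of a complex may be named, and each other list gives its highest and lowest gene. The members and all lists were chosen with earlier results of these data known.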

Additional observations from a re-analysis of the deposited data

How the results depend on the processing

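None of the 42 genes was called with all 4 libraries under any scaling, filter or tool tried. Of all genes, 11 were called, against 374 by DESeq2, 349 by the likelihood ratio test and 87 when libraries were not scaled. Leaving out 1 library gave from 27 to 3492 (143 without KO1, 3492 without KO2, 41 without WT3, 27 without WT8). In both cases the cause was not tested. Leaving out 1 library gave from 0 to 14 replication genes called lower and from 0 to 1 called higher, and at an unadjusted p below 0.05 from 0 to 19 lower and from 0 to 1 higher. Every such call came without KO2. The median log2 fold change of the 42 genes then ran from -0.44 to -0.048, lowest without KO2 and highest without KO1. By role it ran from -0.21 to -0.057 for licensing, -0.57 to 0.020 for origin firing, -0.45 to -0.029 for the clamp and loader and -0.66 to 0.000102 for RPA. It ran from -0.63 to -0.081 for Okazaki fragment enzymes, -0.51 to -0.050 for nucleotide supply and -0.50 to -0.028 for CAF-1, and from -0.31 to -0.075 for polymerases and primase. The log2 fold change turned sign without KO1 for 11 genes, and its range over the libraries left out was -0.079 to 0.042 for Cdc6, -0.23 to 0.012 for Cdt1, -0.17 to 0.065 for Mcm10, -0.70 to 0.020 for Cdc45l, -1.46 to 0.025 for Gins3 and -0.29 to 0.072 for Rfc1. It was -0.31 to 0.034 for Pold3, -0.077 to 0.036 for Rpa1, -0.66 to 0.000102 for Rpa3, -0.34 to 0.069 for Chaf1a and -0.035 to 0.11 for Pola1. The sign of Rpa1 also turned without WT3, and that of Pola1 without WT8 and with unscaled libraries (-0.021). No paired analysis was run. The groups share no replicate numbers, which does not tell whether any of the libraries came from littermates.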

Other observations

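Across the 42 replication genes, transcript length and the percentage of the control mean in KO1 had a Spearman correlation of 0.57, the shorter transcripts tending to be the lower ones. Over 9987 genes with a transcript length it was 0.04. In KO2 the values were 0.08 and 0.01. These are descriptions across genes of the same libraries, and genes are not independent replicates. The order did not hold within every complex. Of the RPA genes, Rpa2 has a longer transcript than Rpa3 (1813 against 670 bases) and was lower in KO1 (56.8% against 63.7%). It did not hold throughout the MCM, GINS and RFC genes either. It held for Pola1 and Pola2 (5346 and 2424 bases), Pole and Pole2 (7163 and 1695), and Pold1, Pold3 and Pold2 (3454, 3069 and 1646). It also held for Prim2 and Prim1 (1965 and 1583), Rrm1 and Rrm2 (3997 and 2193), and Chaf1a and Chaf1b (2844 and 1922). The part of length in these subunit differences was not tested.

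The ratio of Cdt1 to Gmnn, which encodes the inhibitor of CDT1, was 1.46 in KO1, 1.56 in KO2, 1.49 in WT3 and 1.43 in WT8, while Pole to Pole2 was 3.18, 2.38, 2.54 and 2.38 in the same order. KO1 thus stood apart in the second ratio and lay between the controls in the first.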
